A study of Mus musculus with 2 samples.

Results

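The AP-2 transcription factor family of the mouse, Tfap2a, Tfap2b, Tfap2c, Tfap2d and Tfap2e, was examined in cells sorted from the otocyst, the epithelial vesicle that gives rise to the inner ear. The 5 genes were taken by name, and 10 probe sets of the array named 1 of them and no other gene, out of 34958 probe sets that named 1 of 18194 genes. Both populations came from embryos at E10.5 that were heterozygous for the transgene Tg(ETAR-EGFP)14Imeg, with no other treatment. The EGFP-positive cells (EGFP+) lie mainly in the ventral and dorsomedial otocyst, and the EGFP-negative cells (EGFP-) include the dorsolateral otocyst, where the reporter is silent. Each population was measured once, on 1 array, so no spread between samples exists and no p-value is given. The sources used here do not say how many embryos went into a sort, and the labels name the promoter of the reporter only as ETAR.

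AP-2 proteins bind GC-rich DNA as dimers, through a basic region and a helix-span-helix domain that the members share. Tfap2a and Tfap2b are known for their roles in neural crest, and Tfap2a and Tfap2c for roles in surface ectoderm, the tissue from which the otic placode forms. Tfap2d is known from the midbrain and retina and Tfap2e from the olfactory bulb. The coactivators Cited2, Ep300 and Crebbp bind AP-2 proteins, and Kctd1 and Kctd15 inhibit them.

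The promoters of Tfap2a and Tfap2b are shown because these are the members with more than 1 probe set above background, and the promoters of Kit and Apoe because they are reported AP-2 targets with opposite differences between the populations. The sequences are those of RefSeq on GRCm38.p6, from 250 bases before to 50 bases after an annotated start. Capitals mark a match to the AP-2 motif, searched as GCCNNNGGC and GCCNNNNGGC, each of which reads the same way on both strands. Matches of the spacings may overlap. Tfap2a has 2 annotated starts in the table and both are given. The windows of Kit and Apoe were taken only from those that hold a match. Kit has a further window with the same match, chr5:75574741-75575040, which is not shown.
Tfap2a, upstream start, chr13:40734871-40735170, minus strand: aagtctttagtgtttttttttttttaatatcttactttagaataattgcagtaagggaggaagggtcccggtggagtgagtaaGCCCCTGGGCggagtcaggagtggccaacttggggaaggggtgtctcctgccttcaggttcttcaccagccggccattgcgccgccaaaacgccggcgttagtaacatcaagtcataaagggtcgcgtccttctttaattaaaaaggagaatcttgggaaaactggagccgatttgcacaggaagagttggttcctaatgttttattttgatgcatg
Tfap2a, downstream start, chr13:40733746-40734045, minus strand: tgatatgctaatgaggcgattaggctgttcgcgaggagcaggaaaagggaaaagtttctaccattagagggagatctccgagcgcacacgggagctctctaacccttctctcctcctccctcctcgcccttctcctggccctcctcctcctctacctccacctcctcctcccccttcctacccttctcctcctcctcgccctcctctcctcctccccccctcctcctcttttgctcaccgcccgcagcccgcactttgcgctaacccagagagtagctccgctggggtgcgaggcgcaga
Tfap2b, chr1:19211804-19212103, plus strand: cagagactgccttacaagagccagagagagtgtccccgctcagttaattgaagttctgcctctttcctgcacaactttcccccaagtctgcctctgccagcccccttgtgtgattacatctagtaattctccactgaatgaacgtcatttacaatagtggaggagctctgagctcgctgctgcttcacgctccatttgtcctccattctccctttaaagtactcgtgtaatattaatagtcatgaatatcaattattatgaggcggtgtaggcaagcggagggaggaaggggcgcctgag
Kit, chr5:75574737-75575036, plus strand: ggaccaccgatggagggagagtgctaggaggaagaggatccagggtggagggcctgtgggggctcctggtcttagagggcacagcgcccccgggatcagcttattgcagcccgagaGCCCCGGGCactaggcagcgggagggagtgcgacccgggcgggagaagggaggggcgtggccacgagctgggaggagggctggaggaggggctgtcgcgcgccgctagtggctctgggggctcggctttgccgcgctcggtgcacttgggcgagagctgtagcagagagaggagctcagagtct
Apoe, chr7:19698572-19698871, minus strand: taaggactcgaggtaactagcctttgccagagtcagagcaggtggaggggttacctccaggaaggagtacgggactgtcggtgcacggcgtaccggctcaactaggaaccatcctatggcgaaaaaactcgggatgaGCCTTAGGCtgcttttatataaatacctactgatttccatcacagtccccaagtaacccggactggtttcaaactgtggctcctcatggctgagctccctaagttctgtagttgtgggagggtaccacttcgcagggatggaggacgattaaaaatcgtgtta

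The upstream window of Tfap2a held 1 match with the 4-base spacer, GCCCCTGGGC, beginning 167 bases before the start. The downstream window of Tfap2a and the window of Tfap2b held neither spacing. Among all 32851 promoter windows, 16.6% held the 3-base spacing, 14.8% the 4-base spacing and 27.0% at least 1 of them. The windows of Tfap2d and Tfap2e held neither, and the table has no window for Tfap2c. The GC content of the windows was 46.3% for the upstream and 61.0% for the downstream start of Tfap2a, 48.3% for Tfap2b and 60.3% for Tfap2e, against a median of 52.7% over all windows. A match describes these letters only.

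All AP-2 signal that stood clear of background was higher in the EGFP- cells. Tfap2b had the largest difference, at least 10.48-fold, Tfap2a was 2.49-fold and Tfap2c at least 2.36-fold higher there, and Tfap2d and Tfap2e were at background in both libraries. These bounds hold against a floor, which was set at the 40th percentile of each array, a signal of 10.4 in the EGFP+ and 12.4 in the EGFP- library. A signal under its floor was raised to it before a ratio was taken, which makes the ratio a bound, written as "at least". The brightest of 27 silent bacterial control probe sets reached 12.3 and 9.0, so the EGFP+ floor lies below its brightest control and a bound taken against that control is lower.

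At the limit of 2-fold, 3 of the 5 members were higher in EGFP- cells and none was higher in EGFP+ cells. The same call was made for 5.60% of all 18194 named genes and for 7.63% of the 13363 genes that passed the floor in 1 library or both. In the direction of EGFP+ cells the shares were 2.13% and 2.90%. After quantile normalization, the counts over all genes were 823 higher in EGFP- and 503 higher in EGFP+ cells, against 1019 and 388 as deposited. The 3 members stayed past 2-fold there, Tfap2c only just, with its bound at a log2 ratio of -1.003. Tfap2b and Tfap2c lay above the floor in the EGFP- library only. Of the 952 genes with that status, 387, or 40.7%, were past 2-fold; a gene that passes the floor only where it is high had to differ. Of the 11682 genes above the floor in both libraries, as Tfap2a was, 5.41% were at least 2-fold higher in EGFP- cells.

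**Figure D1:**
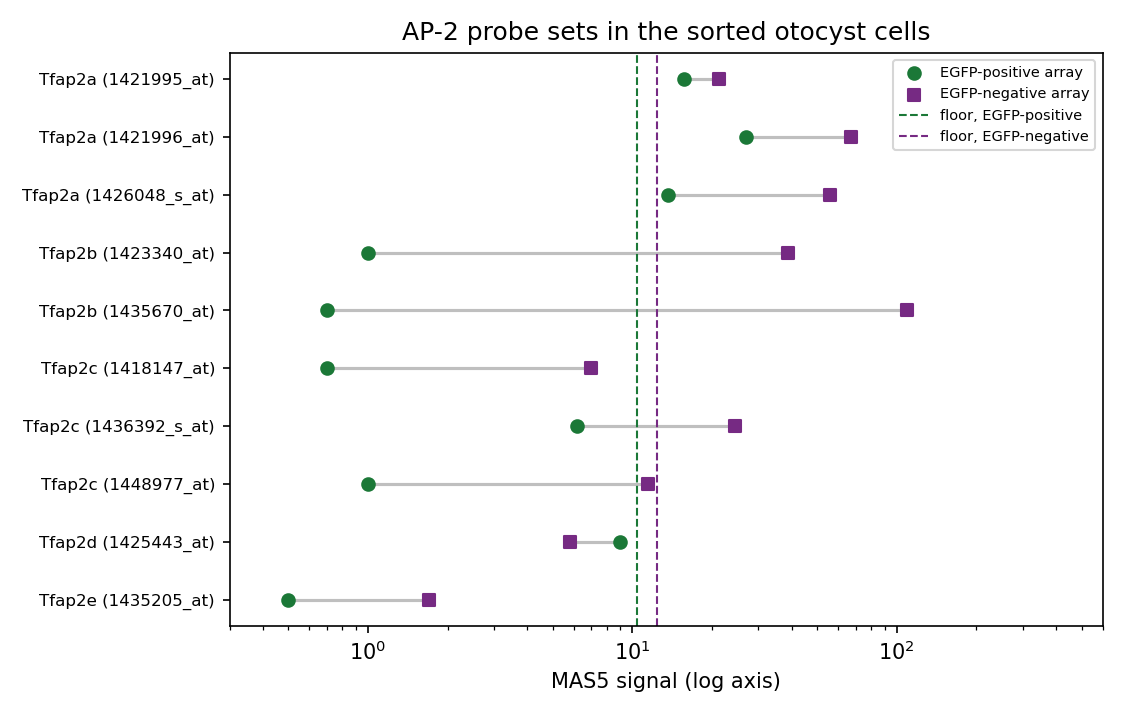
MAS5 signal (log axis) of each of the 10 AP-2 probe sets on the EGFP+ array (green circles) and the EGFP- array (purple squares), with the floor of each array as a dashed line. In 9 of 10 probe sets the EGFP+ signal is the lower, and the exception, Tfap2d, lies below the floor on both arrays. Of the 9, 1418147_at and 1448977_at (Tfap2c) and 1435205_at (Tfap2e) also lie below the floor on both arrays. The median signal over all probe sets was lower on the EGFP+ array too, 17.6 against 20.6. Levels of different probe sets are not comparable with each other.

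Tfap2a, the member with the broadest role in ectoderm and neural crest, had 3 probe sets, all above the floor in both libraries. The brightest, 1421996_at, had a signal of 26.9 in EGFP+ and 66.9 in EGFP- cells, a log2 ratio of -1.31. The probe set 1426048_s_at had 13.6 and 56.0, a log2 ratio of -2.04. The suffix of 1426048_s_at marks probes that can match more than 1 transcript, and its EGFP+ signal is close to the brightest silent control, 12.3. The probe set 1421995_at had 15.7 and 21.2, a log2 ratio of -0.43. All 3 were lower in EGFP+ cells, but by 1.35-fold to 4.12-fold, so the size of the Tfap2a difference depends on the probe set. The SD of log2 ratios among its probe sets was 0.81 (3 probe sets), against 0.41 for 950 genes with several probe sets and a mean signal under 50.

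Tfap2b, needed in the kidney and in derivatives of the neural crest, had 2 probe sets and was not distinguished from background in EGFP+ cells by either. The probe set 1435670_at had a signal of 0.7 in EGFP+ and 109.0 in EGFP- cells, at least 10.48-fold higher in the latter. The probe set 1423340_at had 1.0 and 38.7, at least 3.72-fold higher. Both probe sets thus went the same way and past 2-fold, and the log2 ratios of -3.39 and -1.90 are limited by the floor and not by a measured EGFP+ level. Against the brightest silent control, the bounds were 8.86-fold and 3.15-fold. At the stricter limit of 4-fold, which 2.53% of the 13363 genes passed in this direction, Tfap2b was the only member to pass, but with the floor at the 60th percentile its log2 ratio was -1.71, within 4-fold.

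Tfap2c, known from trophoblast, germ cells and ectoderm, had 3 probe sets, of which 1 lay above the floor, in the EGFP- library alone. That probe set, 1436392_s_at, had a signal of 6.2 in EGFP+ and 24.5 in EGFP- cells, a log2 ratio of at most -1.24. Its suffix marks probes that can match more than 1 transcript. The others had 1.0 against 11.5 (1448977_at) and 0.7 against 7.0 (1418147_at), below the floor in both libraries. With the brightest silent control as floor the bound for Tfap2c was 1.99-fold, just short of the 2-fold limit, so the call on this gene rests on the choice of floor.

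Tfap2d and Tfap2e had 1 probe set each. Tfap2d (1425443_at) had a signal of 9.0 in EGFP+ and 5.8 in EGFP- cells, and Tfap2e (1435205_at) had 0.5 and 1.7. None of these values passed its floor, so neither gene was detectable on these arrays and no ratio is given for them. Tfap2d is the neighbour of Tfap2b on chromosome 1, with 0 annotated genes between them in the GRCm38.p6 gene table. Of this pair, Tfap2b was thus above background in EGFP- cells and Tfap2d in neither population.

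Signals of other cell types were set beside those of AP-2, since neural crest and surface ectoderm are its best known sites. Their part in the AP-2 differences was not tested. Markers of otic epithelium were present in both libraries, as the tissue label has it, with all 16 listed genes that have a probe set above the floor on each array. Of these, 11 were at least 2-fold higher in EGFP+ cells and 1, Hmx2 (37.4 against 80.7, picked out once its values were known), in EGFP- cells, with a median log2 ratio of 1.30. The neural crest and glia list went the other way. Of 11 genes with a probe set, 9 were at least 2-fold higher in EGFP- and 1, Sox10, which is also an otic gene, in EGFP+ cells, with a median log2 ratio of -2.52. The summed signal of the list was 1492 in EGFP+ and 5503 in EGFP- cells. Much of the EGFP- sum came from Crabp1 (279.8 in EGFP+ and 1898 in EGFP- cells) and Zic1 (14.2 and 1523). Zic1 is also in the hindbrain list. Of the crest regulators named after their values were seen, Pax3 had a signal of 1.8 against 89.7 and Foxd3 of 5.0 against 48.6, both at background in EGFP+ cells. Genes at the EGFP+ floor, whether or not above it in EGFP- cells, made up 3 of the 11 crest genes and 3 of 11 in the mesenchyme list. They were 7 of 11 in the hindbrain, 5 of 8 in the endothelium and 4 of 6 in the leukocyte list. For surface ectoderm they were 5 of 10 and for sympathetic and midbrain neurons 3 of 7. For erythroid cells they were 2 of 5 and for otic epithelium 0 of 16. These counts include genes at the floor in both libraries, 2 in the hindbrain, 2 in the surface ectoderm and 1 in the sympathetic and midbrain list. Over all 18194 named genes, 952 were, like Tfap2b, at the floor in EGFP+ cells only, and 4831 were at the floor in both libraries.

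Few genes of the surface ectoderm list differed. Of 10 listed genes with a probe set, 1 was past 2-fold, Krt15, an epidermal keratin, with 0.6 in EGFP+ and 47.4 in EGFP- cells. The summed signal was 296.4 against 293.7 and the median log2 ratio -0.01 over the 8 genes above the floor. In these sums Krt15 and Wnt6 offset each other. Wnt6 had 147.6 in EGFP+ and 92.0 in EGFP- cells, 1.60-fold, with its other probe set at a log2 ratio of 1.45. Perp, a desmosomal gene, had 67.3 and 67.7, and Krt5, a basal keratin, 15.9 and 16.1. Trp63, the master regulator of epidermis, named after its values were seen, had 10.0 and 17.4, below the floor in EGFP+ and just above it in EGFP- cells.

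Markers of further cell types were higher in the EGFP- library too. The summed signal of the mesenchyme list (11 genes) was 373.6 in EGFP+ and 5713 in EGFP- cells. That of the hindbrain list (11 genes) was 89.7 and 2531, and that of the endothelium list (8 genes) 68.4 and 491.4. Zic1, shared with the crest list, gave 1523 of the hindbrain signal in EGFP- cells. For leukocytes (6 genes) the sums were 48.1 and 1066, and for erythroid cells (5 genes) 2484 and 13357. In bulk RNA, fewer cells of a type and less RNA per cell cannot be told apart. The list of sympathetic and midbrain neurons, sites of Tfap2b and Tfap2d, was mixed. The 6 genes above the floor had a median log2 ratio of -0.63. Of these, 2 were at least 2-fold higher in EGFP- cells, Dbh and Phox2a. Phox2a, with 4.9 in EGFP+ and 52.4 in EGFP- cells, was chosen for mention with these signals already known. In EGFP+ cells 1 was at least 2-fold higher, Pou4f1, with 136.5 in EGFP+ and 60.9 in EGFP- cells. The other probe set of Pou4f1 was within 2-fold, at a log2 ratio of 0.62. Which cells gave the signals of this list was not tested.

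**Figure D2:**
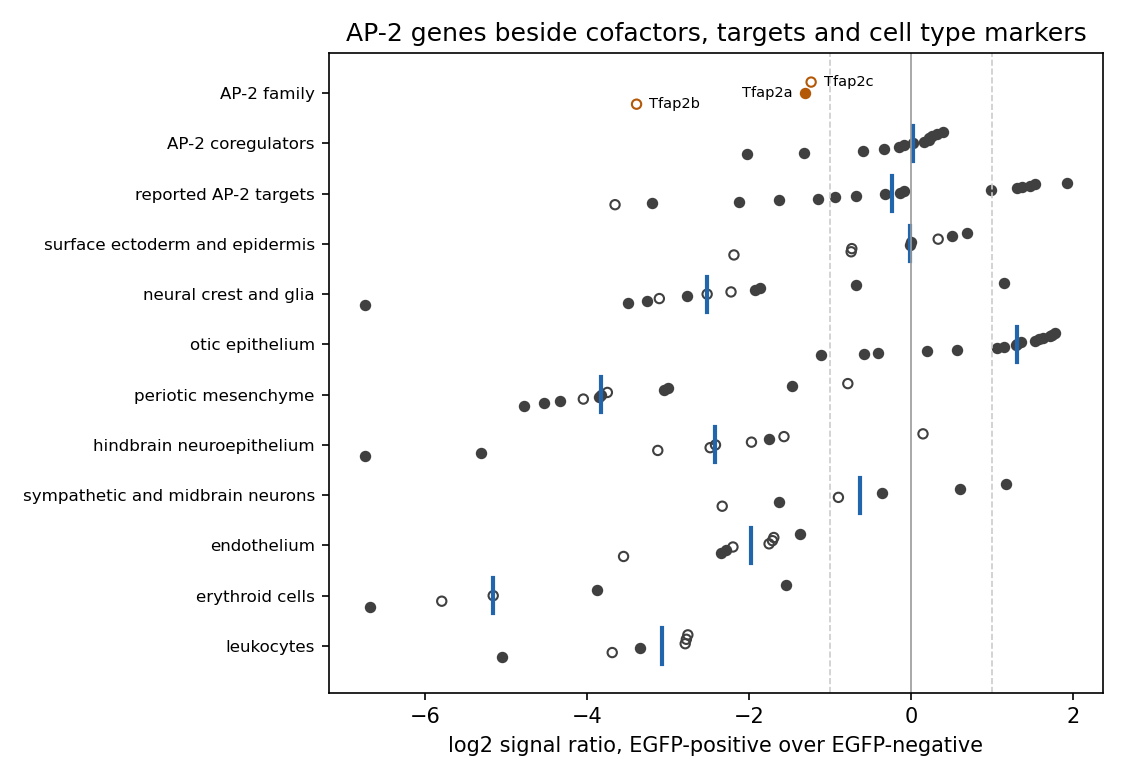
Log2 signal ratio, EGFP+ over EGFP-, of the 3 AP-2 members above the floor (orange) and of the genes of 11 lists (grey), with open symbols for bounds, blue bars for list medians and dashed lines at 2-fold. Tfap2a sits at -1.31 and the bounds of Tfap2c and Tfap2b at -1.24 and -3.39, while list medians range from -5.16 (erythroid cells) to 1.30 (otic epithelium).

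Most genes for partners of AP-2 proteins were within 2-fold, as most genes were. All 13 coregulator genes with a probe set were above the floor in both libraries, and 11 were within 2-fold, as were 89.5% of the 13363 genes above the floor, with a median log2 ratio of 0.02, against 0.003 over all 13363 genes. The histone acetyltransferase genes Ep300 (311.9 in EGFP+ and 307.7 in EGFP- cells) and Crebbp (446.8 and 475.0) differed little. Cited2, the coactivator of Tfap2a in heart and neural tube development, had 882.1 and 761.5. Kctd15, an inhibitor of AP-2 in zebrafish crest formation, had 383.2 and 425.4, and Kctd1 83.8 and 67.2. The 2 genes past 2-fold were both higher in EGFP- cells. Cited4, a further coactivator, had 62.4 and 156.6, 2.51-fold, and Myc, whose protein binds AP-2 in human cells, had 35 and 142.3, 4.07-fold. Each of these has 1 measured probe set, and Cited4 had no value where probe sets without shared probes were preferred. Cited1 had 46.8 and 70.9, within 2-fold. Also within 2-fold were Wwox (22.6 and 28.5), Yeats4 (624.3 and 538.2), Npm1 (5945 and 5351), Kdm5b (613.8 and 468.4) and Parp1 (1183 and 995.1).

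Genes reported as AP-2 targets, mostly in human cell lines, were split. Of 19 with a probe set, 16 were above the floor in at least 1 library, with a median log2 ratio of -0.23. Of these, 5 were at least 2-fold higher in EGFP+ cells, 5 in EGFP- cells and 6 within 2-fold. Over all 13363 genes above the floor, 2.90% were higher in EGFP+ and 7.63% in EGFP- cells. The list was chosen with earlier results known, so these shares are no test. Cdh1 is also in the otic list, and Dbh in that of sympathetic and midbrain neurons. The 5 higher in EGFP+ cells, where Tfap2a was lower, were Cdkn1a, Cldn7, Erbb3, Kit and Cdh1. Cdkn1a, the cell cycle inhibitor p21, had 419.9 against 110.6, 3.80-fold, with its other probe set at a log2 ratio of 2.49. The neuregulin receptor gene Erbb3 had 1405 against 511.1, 2.75-fold, and its other probe set was at 0.98. Kit, the stem cell factor receptor gene, had 266.6 against 103.3, 2.58-fold, and its other probe set was at 1.28. The epithelial genes Cldn7 (649.6 against 225.2) and Cdh1 (777.5 against 315.4) were 2.88-fold and 2.47-fold higher, with 1 measured probe set each.

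The 5 targets higher in EGFP- cells were Hoxa2, Apoe, Ret, Dbh and Mmp2. Hoxa2, whose mouse crest enhancer holds AP-2 elements, had 131.0 in EGFP- and 7.3 in EGFP+ cells. The difference was at least 12.6-fold against the floor and 10.7-fold against the brightest control. Which cells gave the Hoxa2 signal, and any part of AP-2 in it, was not tested. Apoe, a lipid carrier gene also active in macrophages, had 183.0 against 19.9, 9.20-fold. The receptor gene Ret had 126.0 against 28.9, 4.36-fold, and Mmp2, a matrix protease gene of mesenchyme, 287.4 against 129.4, 2.22-fold. Dbh, the noradrenaline synthesis gene that Tfap2b regulates in sympathetic neurons, had 36.7 against 11.8, 3.11-fold, with the lower signal below the brightest control and its least different probe set at a log2 ratio of -0.73. Erbb2, the best known AP-2 target in human breast cancer cells, had 60.6 in EGFP+ and 75.7 in EGFP- cells, within 2-fold. So were Igfbp5 (1137 and 574.0), the nearest to the limit at 1.98-fold, Gpx1 (1395 and 2687), Mcam (24.4 and 39.1), Bcl2 (86.5 and 95.6) and Vegfa (87.6 and 93.4). Esr1, Krt14 and Cebpa were at background in both libraries.

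**Figure D3:**
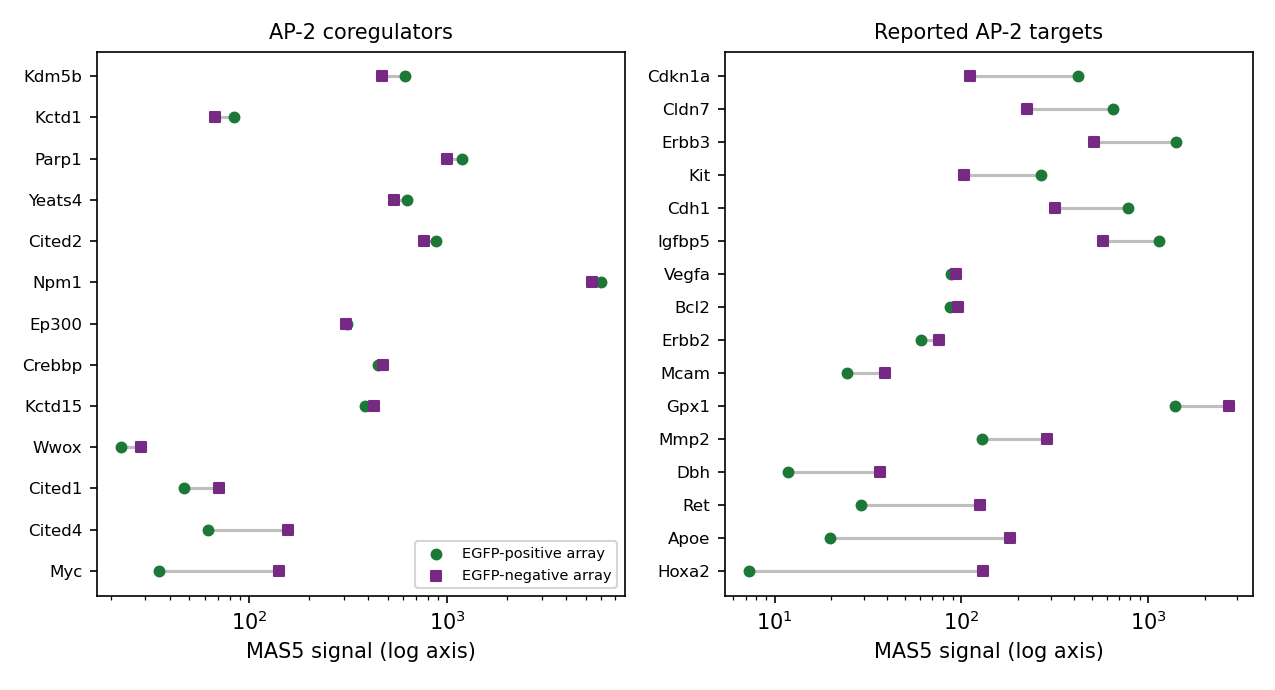
MAS5 signals (log axis) of AP-2 coregulators (left, 13 genes) and reported targets above the floor (right, 16 genes) on the EGFP+ (green circles) and EGFP- (purple squares) arrays, ordered by ratio. Most coregulator pairs lie close together, whereas the targets range from Cdkn1a, 3.80-fold higher in EGFP+ cells, to Hoxa2, at 7.3 in EGFP+ and 131.0 in EGFP- cells.

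Targets with the AP-2 motif in their promoter window went both ways. Of the 15 targets with a promoter window and a probe set, 9 held at least 1 of the spacings, against 29.6% of all 27025 genes with a window. Of these 9, 1 was higher in EGFP+ cells (Kit, with GCCCCGGGC), 2 in EGFP- cells (Apoe, with GCCTTAGGC, and Dbh, with GCCCCAGGGC), 5 were within 2-fold and 1 was at background. Of the 6 with neither spacing, 2 were higher in EGFP+ and 1 in EGFP- cells. The targets were listed because AP-2 binding had been reported for them, so a share above that of all genes describes the list.

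The size of the AP-2 ratios was then compared across ways of setting the floor, scaling the arrays and choosing probe sets. All settings reuse the same arrays and can hardly reverse signals this far apart, so they do not test the direction. The ratio of Tfap2a ranged from -1.35 to -0.95 and that of Tfap2b from -4.96 to -1.71, the latter following the floor. Tfap2c had no value with the floor at the 60th percentile or where probe sets without shared probes were preferred, and lay between -1.98 and -0.87 elsewhere.

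**Figure D4:**
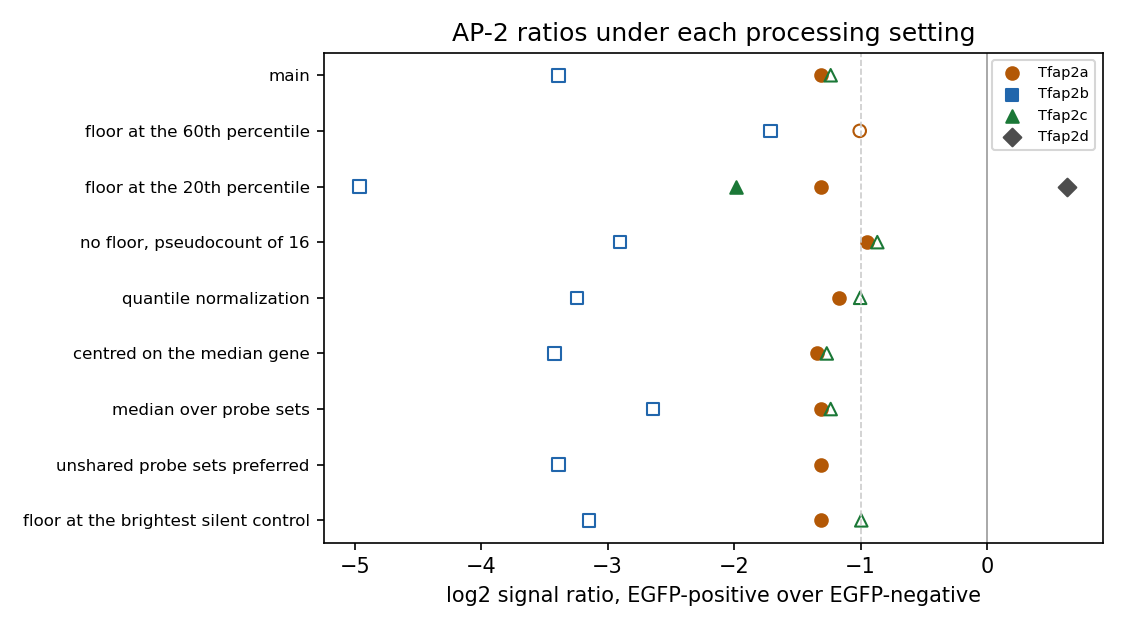
Log2 signal ratio, EGFP+ over EGFP-, of each AP-2 member above the floor under the deposited scaling and 8 other settings, with open symbols where 1 side is a bound and a dashed line at 2-fold. Tfap2a, Tfap2b and Tfap2c stay below 0 wherever they have a value, which settings applied to the same arrays could hardly change. Tfap2d has a value, 0.63, only with the floor at the 20th percentile.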

How the data were processed

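RNA of EGFP-positive (EGFP+) and EGFP-negative (EGFP-) otocyst cells was hybridised to 1 Affymetrix array each. The deposited intensities are MAS5 signals on a linear scale, made by the authors with MAS5 version 5.0 per the submitters' processing notes. MAS5 reduces a probe set to 1 signal and applies 1 scaling factor per array, and the mean after trimming 2% at either end was 100.0 in both columns. Detection calls were not used here. Depth has no meaning for arrays, and the number of arrays limits the precision.

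Of 45101 probe sets, 34958 named 1 gene in the platform annotation, 932 named several and 9211 were unnamed. Symbols were updated by gene identifier from the RefSeq table of GRCm38.p6. The brightest probe set by mean signal stood for a gene, and signals were raised to the 40th percentile of their array. Probe sets of 1 gene differed in their log2 ratio with an SD of 0.315 over 5640 genes. This spread within the same arrays holds no error between sorts or arrays, which 1 array per population cannot give. The family and the 11 lists (129 entries, 12 not analysed here) were chosen with earlier results of these data known. Genes open to naming were all members, coregulators and targets, and from each other list the 4 largest ratios above the floor in both arrays and the 3 brightest, exceptions being stated. A planned likeness of genes to Tfap2a by signal distance is not reported, since levels of different probe sets are not comparable. Python 3.11.15, numpy 2.4.6 and pandas 2.3.3 were used.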

Additional observations from a re-analysis of the deposited data

How the results depend on the processing

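No paired analysis was possible because each population was measured once. Tfap2a, Tfap2b and Tfap2c were lower in EGFP+ cells under each setting in which they had a value, and no member was past 2-fold the other way. Every setting reuses the same arrays and could hardly reverse these signals, so the unchanged direction is no further support. The number past 2-fold in EGFP- cells was 3, but 2 with the floor at the 60th percentile, with unshared probe sets preferred or with the brightest silent control as floor, 1 with a pseudocount of 16 in place of a floor and 1 at a limit of 4-fold. With that pseudocount the log2 ratios were -0.95 for Tfap2a, -2.90 for Tfap2b and -0.87 for Tfap2c, a scale that shrinks low signals by construction. The bound of Tfap2b followed the floor, at -1.71 with the 60th and -4.96 with the 20th percentile, and was -2.64 as the median of its probe sets. Tfap2c was -1.98 with the 20th percentile and -0.99 with the brightest silent control as floor, the latter setting being added after seeing the data. Tfap2c had no value with the 60th percentile or with unshared probe sets preferred. In EGFP+ cells 1 member was above the floor, but 0 with the 60th and 3 with the 20th percentile. Over all genes, 1019 were higher in EGFP- and 388 in EGFP+ cells. These counts were 478 and 237 with the 60th percentile, 1954 and 711 with the 20th, 647 and 238 with the pseudocount, 1944 and 1047 at 1.5-fold, and 338 and 37 at 4-fold. Of the other values by setting, for listed genes and list medians, 514 moved by less than the SD between probe sets and 81 by more. No value past 2-fold changed sign. Many of the 514 could not move, so their number does not measure robustness. A floor does not act on a signal above it, and a gene with 1 probe set offers no other choice. Cdh1, for example, was 1.30 with each of the floors and probe set choices.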
